A study of Mus musculus with 24 samples.

Results

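Hippocampal RNA of 12 mice with intact *Egr1* was compared by whether they carried the Nestin-Cre transgene, out of 24 mice in the series. The 6 Egr1wtNesCre+ mice (3 females and 3 males) carry the transgene without any floxed *Egr1* allele, and the 6 Egr1wtNesCre- mice (3 females and 3 males) are the wild type. Members were chosen by the genotype in the sample labels, and no measured value was used. The other 12 mice carry floxed *Egr1*, which is *Egr1* flanked by loxP sites, either without Cre (Egr1fNesCre-, 6 mice) or with it (Egr1fNesCre+, 6 mice, in which *Egr1* is lost). The hippocampi came from adult mice that received no treatment named in the labels, and their exact age is not given there. The Nestin-Cre line was a C57BL/6 strain from a repository, while the floxed strain was made on C57BL/6N. Hereafter Cre+ and Cre- stand for the 12 mice with intact *Egr1*.

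Cre recombinase cuts DNA at loxP sites and removes what lies between a pair of them. In Nestin-Cre mice it is driven by the promoter and enhancer of rat *Nestin*, the gene for an intermediate filament of neural precursor cells, so that neurons and glia descended from these cells are recombined. Mice with Cre and no floxed allele serve as the control for what the transgene, its insertion site and the recombinase do by themselves. The counted genes are mouse genes and hold no row for Cre, so the labels could not be checked by the transgene itself.

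Total counts ran from 18413714 to 25335139 per mouse. The 3 Cre+ females held 18702206 to 19938139 counts and the 3 Cre- females 24257816 to 25335139, so that depth separated the genotypes in females, while the males overlapped. The tissue was checked by the sum of 6 markers of excitatory hippocampal neurons, among them *Camk2a* and *Wfs1*, which was 5133 to 7694 CPM (read counts scaled to a common library size) in Cre+ mice and 6468 to 8178 CPM in Cre- mice. The labels also carry the cell type "endocrine"; *Gh*, the gene for growth hormone, reached no more than 0.129 CPM in Cre+ and 0.125 CPM in Cre- mice. *Egr1* was read in every mouse, at 47.6 to 125 CPM with Cre and 63.8 to 149 CPM without it.

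Libraries that stood apart were looked for after the data were seen, and are described before the comparison. The Cre+ male 2 library differed from the other 5 Cre+ libraries in the share of counts on long genes, defined as protein-coding genes with more than 6882 exonic bases. This share was 39.0% in Cre+ male 2 and 33.1% to 35.5% in the other 5, against 35.2% to 37.5% in Cre- mice. Markers of the choroid plexus, the epithelium that secretes cerebrospinal fluid beside the hippocampus, were high in Cre+ female 1 and, to a lesser degree, in Cre+ male 3. On the first principal component, which held 20.9% of the variance, Cre+ female 1 lay at 44.1 and the other 11 mice between -13.8 and 8.15. Counts of the gene lists described are also given without both choroid-rich mice where that turned the direction of a list.

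To ask what the transgene does with *Egr1* intact, Cre+ and Cre- mice were compared with sex as a covariate. Differentially expressed genes (DEGs) had to pass an adjusted p of 0.05 and differ by a fold change (FC) of 1.2 or more. Of 18022 genes tested with edgeR, 0 were DEGs (0%) and the lowest adjusted p was 0.0948, for *Wdfy1*. At an unadjusted p under 0.05 there were 1104 genes, 552 higher with Cre (3.06%) and 552 lower (3.06%). limma-voom called 0 genes as well, while DESeq2 called 20 DEGs of the 14381 genes to which it gave an adjusted p, 9 higher (0.0626%) and 11 lower (0.0765%). The 6 and 6 values of a gene seldom stood clear of each other: every Cre+ mouse was above every Cre- mouse for 23 (0.128%) and below for 22 (0.122%). The genes below are described by their levels, and those not called by edgeR are not said to have changed. Many of them were picked because their mice did not overlap, so that trait is no separate support for them.

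Genes of lowest p among those that were lower in every Cre+ mouse are described first. *Per1*, a component of the circadian clock that glucocorticoids also induce, was at 77.1, 76.9 and 85.6 CPM in Cre+ females and 95.3, 73.6 and 97.1 CPM in Cre+ males, against 118, 117 and 122 CPM in Cre- females and 113, 106 and 113 CPM in Cre- males. Every Cre+ mouse lay below every Cre- mouse (log2FC -0.45 ± 0.08 SE, edgeR adjusted p = 0.172; DESeq2 adjusted p = 0.000206). *Tiparp*, a mono-ADP-ribosyltransferase that the aryl hydrocarbon receptor induces, was at 12.0, 17.3 and 14.9 CPM in Cre+ females and 17.4, 16.8 and 17.0 CPM in Cre+ males. In Cre- mice it was at 25, 29.2 and 26.6 CPM in females and 20.9, 18.7 and 27.5 CPM in males. The groups did not overlap, with the lowest value in Cre+ female 1 (log2FC -0.63 ± 0.12 SE, edgeR adjusted p = 0.259; DESeq2 adjusted p = 0.00274). *Tob2*, an antiproliferative gene of the BTG/TOB family, was at 23.2 to 28.6 CPM (median 25.5) with Cre and 30.5 to 36.4 CPM (median 34.4) without it, at a log2FC of -0.41 ± 0.07 SE.

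*Ddit4*, a stress-induced inhibitor of mTORC1, was at 28.6 to 43.9 CPM (median 42.9) in Cre+ mice and 45.4 to 58.0 CPM (median 54.3) in Cre- mice. Its groups did not overlap, and Cre+ female 1 had the lowest value. *Jade2*, a subunit of a histone acetyltransferase complex, was at 61.4 to 76.0 CPM with Cre and 77.8 to 88.4 CPM without it (log2FC -0.30 ± 0.06 SE). *Spty2d1*, *Prdm4* and the antisense transcript *Emx2os* had no overlap either, at log2FC values of -0.30, -0.24 and -0.50. The libraries did not keep strand, so reads of *Emx2os* cannot be told apart from those of its neighbour on the other strand where they overlap.

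Genes that were higher in every Cre+ mouse included *Hopx* and *Gfap*. *Hopx*, a homeodomain-only gene that marks neural stem cells of the dentate gyrus and is also read in astrocytes, was at 37.2, 34.1 and 39.0 CPM in Cre+ females and 42.4, 33.1 and 42.2 CPM in Cre+ males. It was at 27.7, 24.4 and 28.4 CPM in Cre- females and 32.0, 25.3 and 25.6 CPM in Cre- males, so the lowest Cre+ value lay just above the highest Cre- value (log2FC 0.48 ± 0.09 SE, edgeR adjusted p = 0.236; DESeq2 adjusted p = 0.00156). *Gfap*, the intermediate filament of astrocytes, was at 411, 434 and 483 CPM in Cre+ females and 385, 422 and 440 CPM in Cre+ males. In Cre- mice it was at 342, 368 and 330 CPM in females and 370, 343 and 306 CPM in males, again without overlap (log2FC 0.32 ± 0.07 SE, edgeR adjusted p = 0.34; DESeq2 adjusted p = 0.00707). In bulk tissue, more cells of a type and more RNA per cell cannot be told apart.

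Other genes without overlap stood at lower levels or have less to do with glia. *Psrc1*, a spindle protein gene that is also a p53 target, was at 11.3 to 15.3 CPM with Cre and 8.67 to 10.2 CPM without it (log2FC 0.51 ± 0.10 SE). *Acot1*, a cytosolic acyl-CoA thioesterase, was at 17.5 to 23.9 CPM against 14.0 to 15.5 CPM (log2FC 0.44 ± 0.09 SE). *Nat8f4*, of the N-acetyltransferase 8 family, was at 14.6 to 19.8 CPM against 9.84 to 14.6 CPM (log2FC 0.44 ± 0.08 SE). Both have near copies: 8.12% of the 150-base windows of the longest *Acot1* transcript also occur in *Acot2*, and 2.06% of those of *Nat8f4* in *Nat8f2*, so that part of their counts is uncertain. *Tcn2*, the vitamin B12 carrier, *Sdccag8*, a centrosomal protein gene, *Pcdh12*, an endothelial protocadherin, and *K230010J24Rik*, annotated as protein-coding, were also without overlap, at log2FC values of 0.39, 0.27, 1.61 and 1.00. *Pcdh12* was low throughout, at 0.497 to 0.960 CPM with Cre and 0.0484 to 0.333 CPM without it.

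**Figure D1:**
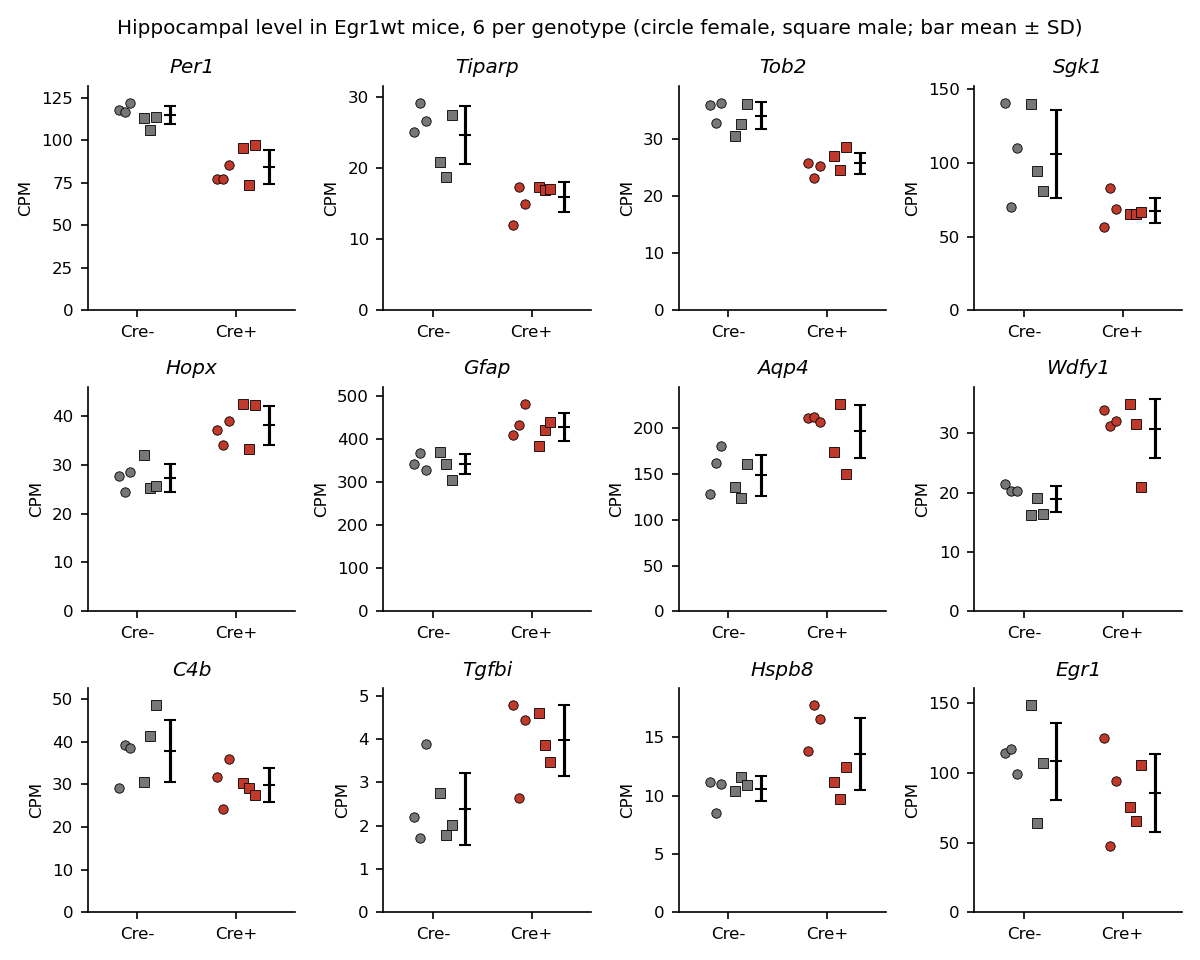
Level in CPM (linear axes from 0) of 12 genes in the hippocampus of each mouse with intact Egr1, by Nestin-Cre. Circles are females, squares males, and bars the mean ± SD of 6 mice; Per1, Tiparp, Tob2, Hopx and Gfap do not overlap between genotypes, and 1 Cre+ mouse of Wdfy1 lies at 21.0 CPM, among the Cre- mice.

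*Wdfy1*, a gene of endosomal Toll-like receptor signalling, had the lowest p of all genes although its groups overlapped. It was at 33.8, 31.2 and 32.0 CPM in Cre+ females and at 35, 31.5 and 21.0 CPM in Cre+ males, against 16.2 to 21.4 CPM in the 6 Cre- mice. A single animal, Cre+ male 3, lay inside the range of the Cre- mice (log2FC 0.70 ± 0.11 SE, edgeR adjusted p = 0.0948). Without that mouse *Wdfy1* passed the test (log2FC 0.78, edgeR adjusted p = 0.00205). The mouse left out held the value that ran against the others, so this fit is no separate support. DESeq2 called *Wdfy1* with all 12 mice (DESeq2 adjusted p = 1.1e-05). *Wdfy1* belongs to a list of 5 genes known to be altered in 1 of the C57BL/6N and C57BL/6J substrains, of which 4 were tested. The other 3, *Nnt*, *Crb1* and *Cyfip2*, had log2FC values of -0.22, 0.44 and -0.15. In the floxed mice *Wdfy1* also took low and high values within a genotype, from 16.3 to 35 CPM with Cre and 16.0 to 30.8 CPM without it. The part of strain background in these values was not tested.

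*Tgfbi* and *C4b* were examined by name. *Tgfbi*, a secreted matrix protein induced by TGF-beta, was at 4.79, 2.63 and 4.45 CPM in Cre+ females and 4.59, 3.87 and 3.47 CPM in Cre+ males. It was at 2.21, 1.71 and 3.89 CPM in Cre- females and 2.76, 1.78 and 2.01 CPM in Cre- males. The groups overlapped, with Cre- female 3 and Cre- male 1 inside the range of the Cre+ mice and Cre+ female 2, male 2 and male 3 inside that of the Cre- mice (log2FC 0.73 ± 0.23 SE, edgeR adjusted p = 0.763). *C4b*, complement component C4, which glia express, was at 31.8, 24.2 and 35.9 CPM in Cre+ females and 30.5, 29.2 and 27.5 CPM in Cre+ males. In Cre- mice it was at 29.1, 39.1 and 38.5 CPM in females and 30.6, 41.3 and 48.7 CPM in males. Its highest 4 values were all from Cre- mice and the groups overlapped (log2FC -0.34 ± 0.12 SE, edgeR adjusted p = 0.763).

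*C4a*, the neighbouring copy of *C4b*, went the other way in level, at 2.59 to 5.92 CPM with Cre and 2.09 to 3.12 CPM without it (log2FC 0.59 ± 0.22 SE, not called). The longest transcripts of *C4b* and *C4a* share 8.26% of the 150-base windows of *C4b*, so counts of each can hold reads of the other. *Hspb8*, a small heat shock protein, was at 13.8, 17.8 and 16.5 CPM in Cre+ females and 11.2, 9.72 and 12.4 CPM in Cre+ males, against 8.53 to 11.6 CPM in Cre- mice. All 3 Cre+ females and Cre+ male 3 lay above every Cre- mouse. *Egr1* overlapped between genotypes, at a mean of 85.6 ± 28.1 CPM with Cre and 108 ± 27.7 CPM without it (SD, n = 6 each; log2FC -0.34 ± 0.21 SE). *Nes*, the mouse gene whose rat promoter drives the transgene, was at 8.46 ± 2.30 and 8.30 ± 1.74 CPM (SD, n = 6 each).

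An exact permutation test with labels permuted within each sex gave a two-sided p of 0.005 for *Tiparp*, the smallest that its 400 arrangements allow. That p follows from the lack of overlap already described for *Tiparp*, so it is no separate support. The same exact permutation test gave p = 0.02 for *Tgfbi*, p = 0.045 for *Hspb8*, p = 0.055 for *C4b* and p = 0.25 for *Egr1*. These 5 genes were picked with earlier results of these mice known, so the values describe single genes and carry no correction.

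Gene lists were read by how many members were higher or lower, beside the median log2FC of 0.0092 over all genes tested. Of all genes tested, 52.3% were higher with Cre. At an unadjusted p under 0.05, 3.06% were higher and 3.06% lower. Each list below is to be read beside these shares. None of the 28 lists held a member called by edgeR. Among 19 tested genes that respond to glucocorticoids 17 were lower with Cre and 6 were so at an unadjusted p under 0.05 (3.06% of all genes were), with a median log2FC of -0.26. The 6 were *Per1*, *Ddit4*, *Sgk1*, *Nfkbia*, *Errfi1* and *Klf9*. *Sgk1*, a kinase induced by glucocorticoids, was at 56.9 to 82.9 CPM (median 66.2) with Cre and 70.5 to 141 CPM (median 102) without it, with Cre+ female 2 above Cre- female 2 and Cre- male 3 (log2FC -0.65 ± 0.15 SE; DESeq2 adjusted p = 0.0153). In females alone 13 of the 19 were lower and in males alone 15. The summed level of the list was 799.8 to 1082 CPM with Cre and 977.8 to 1307 CPM without it, so the groups overlapped.

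Genes induced by neuronal activity leaned the same way. Of 20 tested, 16 were lower with Cre, 3 at an unadjusted p under 0.05 (*Nr4a3*, *Bdnf* and *Fosl2*), with a median of -0.16. *Nr4a3*, an orphan nuclear receptor induced early by stimulation, was at 62.9 to 111 CPM with Cre and 102 to 149 CPM without it (DESeq2 adjusted p = 0.0481). *Bdnf*, a neurotrophin, was at 27.4 to 51.5 CPM and 49.2 to 60.9 CPM. All 6 genes of the EGR family and its NAB corepressors were lower in fitted value, with a median of -0.24, and *Egr4* had the lowest p (log2FC -0.45 ± 0.15 SE, edgeR adjusted p = 0.763). Without Cre+ male 2, 5 of the 6 were lower, and the median of the activity list was -0.05 and that of the glucocorticoid list -0.23. Without both choroid-rich mice the median was -0.28 for the activity list, -0.37 for the EGR and NAB list and -0.26 for the glucocorticoid list.

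Markers of glia were mixed. Of 6 astrocyte markers 4 were higher with Cre, 2 of them at an unadjusted p under 0.05, which were *Gfap* and *Aqp4*, the water channel of astrocyte endfeet. *Aqp4* was at 211, 212 and 207 CPM in Cre+ females and 174, 227 and 149 CPM in Cre+ males, against 124 to 180 CPM (median 148) in Cre- mice (log2FC 0.40 ± 0.10 SE, edgeR adjusted p = 0.7). The summed level of all 6 astrocyte markers was 3589 to 5182 CPM (median 4408) with Cre and 3794 to 5217 CPM (median 4826) without it. The sum of all 26 reactive astrocyte genes, mostly *Gfap*, was 596.4 to 714.8 CPM with Cre and 534.9 to 573.9 CPM without it. Of the 23 tested members of this list, 11 were higher and 12 lower (median -0.02). Without both choroid-rich mice 13 were higher and 10 lower (median 0.10). All 7 oligodendrocyte markers were higher in fitted value, none of them at an unadjusted p under 0.05 (median 0.12), and 4 of the 7 were higher without both mice rich in choroid plexus markers (median 0.01). Of 24 genes of neural progenitors and new neurons 15 were higher, 3 at an unadjusted p under 0.05 (*Hopx*, *Fabp7* and *Stmn1*), and 9 were lower, 1 of them so (*Ccnd2*). *Fabp7*, a fatty acid binding protein of radial glia and astrocytes, was at 34.3, 38.6 and 30.5 CPM in Cre+ females and 24.4, 15.5 and 21.1 CPM in Cre+ males, against 16.1 to 21.8 CPM in Cre- mice (DESeq2 adjusted p = 0.0327). Cre+ male 2 had the lowest value of all 12 mice.

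Neurons, vessels and immune cells were read from their own markers. All 6 markers of excitatory hippocampal neurons were lower in fitted value (median -0.11), whereas without both choroid-rich mice 4 of the 6 were higher (median 0.02). With all 12 mice *Wfs1*, an endoplasmic reticulum protein of CA1 neurons, was the 1 at an unadjusted p under 0.05, at 101 to 148 CPM with Cre and 134 to 188 CPM without it. Of 6 interneuron markers 4 were higher (median 0.13), and 2 without both choroid-rich mice (median -0.03). Of 6 microglial markers 3 were higher, which became 5 without both mice, 5 in females alone and 0 in males alone. Of 6 endothelial markers 5 were higher, and 3 without both choroid-rich mice, 6 in females alone and 2 in males alone. *Cldn5*, a tight junction protein of the blood-brain barrier, was at 12.9 to 34.5 CPM with Cre and 9.83 to 21.6 CPM without it (log2FC 0.66 ± 0.25 SE, edgeR adjusted p = 0.763).

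Among the remaining pathway lists, 13 of 16 heat shock genes were higher with Cre, 3 at an unadjusted p under 0.05 (*Hspb8*, *Cryab* and *Hspe1*), at a median of 0.06. Complement genes were higher for 20 of 29 (median 0.09), with *C4b* lower and *C4a* and the properdin gene *Cfp* higher at an unadjusted p under 0.05. Interferon-stimulated genes were higher for 17 of 26 (median 0.09), 3 at an unadjusted p under 0.05, of which *Isg15* was at 1.24 to 2.26 CPM with Cre and 0.512 to 1.69 CPM without it. In females alone 21 of 26 were higher (median 0.26) and in males alone 11 of 25 (median -0.05), a difference that was not tested for the list. Complement genes were higher for 21 of 26 in females alone and 12 of 25 in males alone (median 0.16 and -0.02). Of 25 genes of TGF-beta signalling 17 were lower (median -0.08), and *Tgfbi*, which was higher, was the only 1 at an unadjusted p under 0.05. Of 22 p53 targets 9 were higher and 13 lower (12 and 10 without both choroid-rich mice), of 26 genes of the growth hormone and IGF axis 14 and 12, and of 7 genes of the aryl hydrocarbon receptor 4 and 3, *Tiparp* being 1 of the 3.

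**Figure D2:**
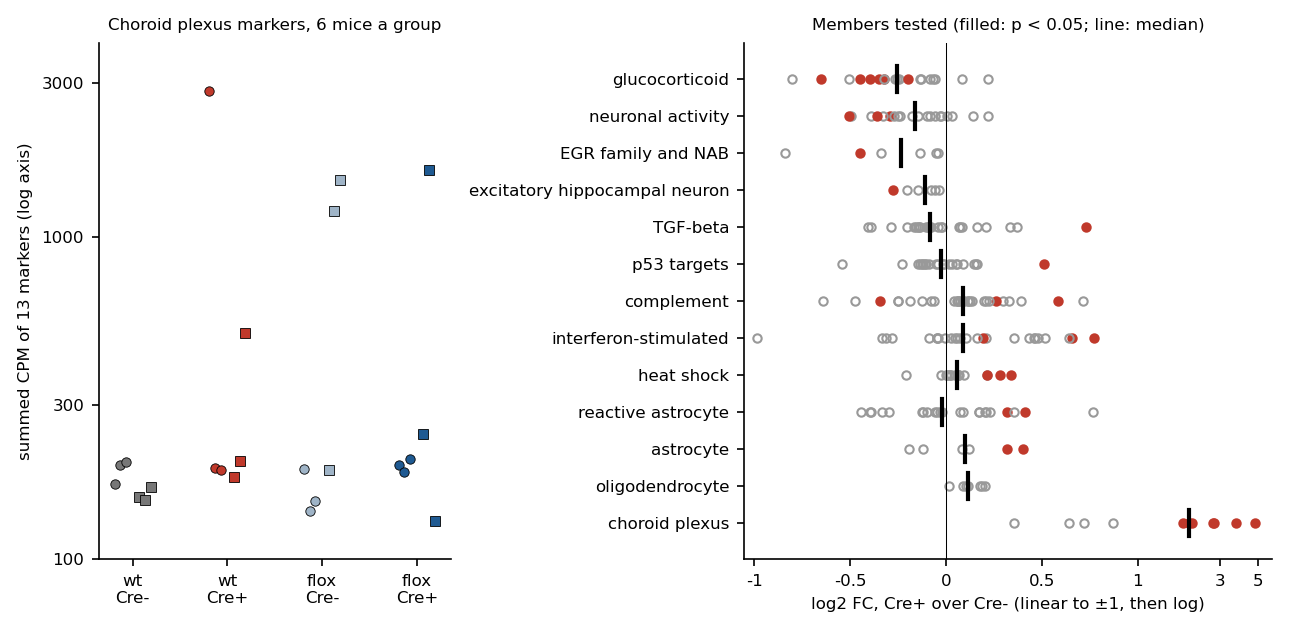
Left, summed CPM of 13 choroid plexus markers in each of 24 mice on a log axis, by genotype (wt, intact Egr1; flox, floxed Egr1; circles females, squares males); 2 Cre+ mice with intact Egr1 lie at 503 and 2829 CPM while the other 4 lie between 180 and 201. Right, log2FC of each tested member of 13 gene lists, Cre+ over Cre- with intact Egr1 (filled, unadjusted edgeR p under 0.05; black line, median); the axis is linear to 1 and logarithmic beyond it.

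The largest fitted difference belonged to markers of the choroid plexus. *Ttr*, transthyretin, the carrier of thyroxine and retinol, was at 1905 CPM in Cre+ female 1 and 289.7 CPM in Cre+ male 3. The other 4 Cre+ mice held 21.8 to 45.4 CPM and the 6 Cre- mice 6.34 to 12.4 CPM, so the groups did not overlap (log2FC 4.77 ± 1.01 SE, edgeR adjusted p = 0.351). All 11 choroid plexus markers tested were higher with Cre, 7 at an unadjusted p under 0.05, with a median log2FC of 1.98. Leaving out both mice gave 7 of 9 higher, 1 at an unadjusted p under 0.05 and a median of 0.18. That 1 was *Ttr*, which then passed the test (log2FC 1.59, edgeR adjusted p = 0.00503). Both mice were picked by a marker sum that includes *Ttr*, and they held the highest *Ttr* values, so this fit is no separate support. Among the floxed mice, 3 held a summed level of 1202 to 1615 CPM, 2 without Cre and 1 with it. How much choroid plexus the dissection took up was not tested.

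Whether the transgene difference depends on sex was tested as an interaction. Of 18588 genes, 0 passed (0%) and the lowest adjusted p was 1, with 404 genes at an unadjusted p under 0.05. DESeq2 called 0 as well. In separate fits of 3 against 3 mice, females had 0 DEGs and 1309 of 17560 genes at an unadjusted p under 0.05. Males had 0 DEGs and 319 of 17320 genes so. Depth separated the genotypes in females, and its part in these counts was not tested. *Hspb8* was higher with Cre in females by a log2FC of 0.65 and in males by 0.01, with an interaction adjusted p of 1. *Tiparp* was lower by a log2FC of -0.87 in females and -0.40 in males, also at an interaction adjusted p of 1. *Per1* was at -0.57 and -0.33, *Hopx* at 0.46 and 0.50, and *Gfap* at 0.36 and 0.28, in females and males respectively.

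A second set of 12 mice, which shares no animal with the first, carries the transgene together with floxed *Egr1*. There the transgene removes *Egr1* as well, so the comparison holds both. In these mice 4 of 18074 genes were DEGs (0.0221%): *Egr1* fell (log2FC -3.57 ± 0.19 SE, edgeR adjusted p = 3.02e-08), *C4b* fell (log2FC -0.69 ± 0.10 SE, edgeR adjusted p = 0.0133), and *Aqp4* (log2FC 0.82 ± 0.11 SE, edgeR adjusted p = 0.00754) and *Tnc*, the matrix glycoprotein tenascin C, rose. *C4b* was at 22.4 to 30.2 CPM in Egr1fNesCre+ mice and 29.5 to 49.3 CPM in Egr1fNesCre- mice. Its direction was that of the mice with intact *Egr1*, and the interaction of floxP with Cre was not called (log2 difference -0.35, edgeR adjusted p = 0.26).

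*Tgfbi* was at 3.00 to 5.93 CPM in Egr1fNesCre+ mice and 1.86 to 2.77 CPM in Egr1fNesCre- mice, without overlap and not called (log2FC 0.91 ± 0.19 SE, edgeR adjusted p = 0.243). *Hopx* was at 33.8 to 48.4 CPM and 22.7 to 30.8 CPM, with a log2FC of 0.49 ± 0.09 SE beside 0.48 in mice with intact *Egr1*. It was the only gene of 17619 tested in both sets whose mice did not overlap in the same direction in each. *Aqp4* was at 196 to 264 CPM with Cre and 101 to 169 CPM without it. *Tiparp* had a log2FC of 0.08 ± 0.13 SE in the floxed mice, *Per1* 0.02 ± 0.11, *Tob2* 0.16 ± 0.11 and *Psrc1* -0.15 ± 0.11. None of these 4 passed the interaction test (edgeR adjusted p = 0.152 for each).

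Across the 17619 genes tested in both sets, 35.5% had the same sign. Of 538 genes higher at an unadjusted p under 0.05 with intact *Egr1*, 156 were also higher in the floxed mice (29%), and of 547 lower genes 106 were also lower (19.4%). The interaction was called for 1 of 18766 genes (0.00533%), which was *Egr1* itself (log2 difference -3.21, edgeR adjusted p = 1.26e-06), while 3534 genes had an unadjusted p under 0.05.

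**Figure D3:**
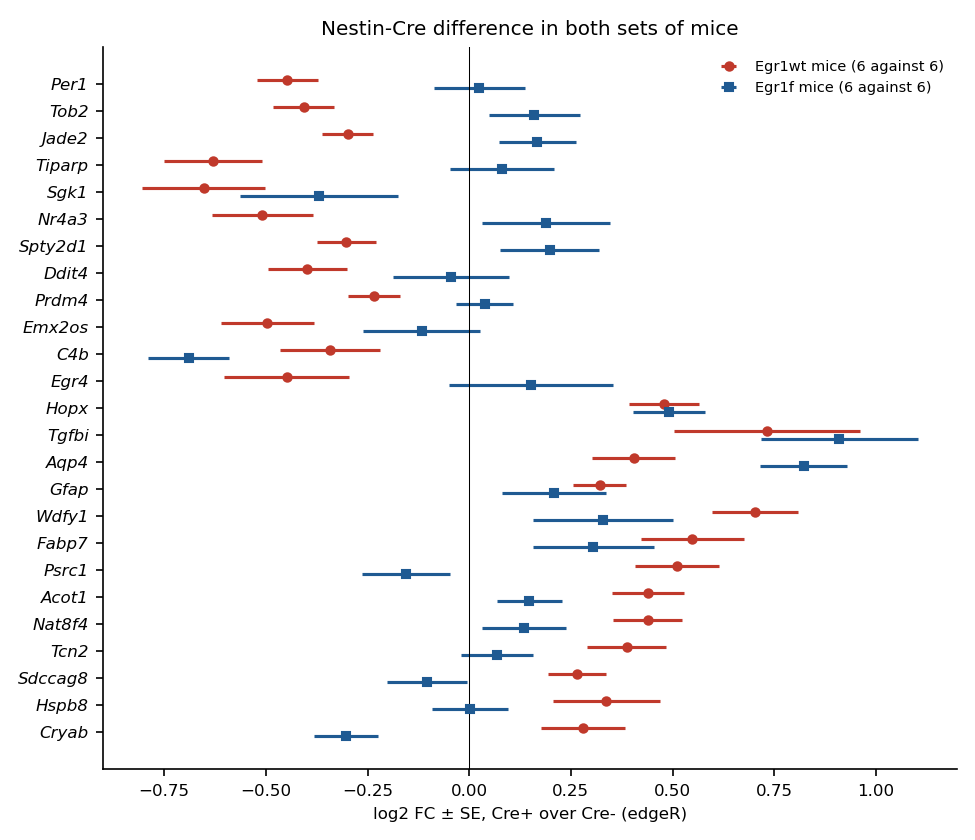
Log2FC ± SE of Cre+ over Cre- for 25 genes, fitted by edgeR in mice with intact Egr1 (red circles, 6 against 6) and in mice with floxed Egr1 (blue squares, 6 against 6), which share no mouse. Hopx lies at 0.48 and 0.49, Tgfbi at 0.73 and 0.91 and C4b at -0.34 and -0.69, whereas Tiparp lies at -0.63 and 0.08.

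Exonic length moved with the transgene in opposite ways in the sets. With intact *Egr1*, the median log2FC went from 0.09 in the fifth of protein-coding genes with the shortest total exonic length to -0.06 in the fifth with the longest. In the floxed mice it went from -0.12 to 0.11. The share of counts on long genes was 34.9 ± 2.23% in Cre+ and 36.5 ± 0.951% in Cre- mice (SD, n = 6 each), and 37.2 ± 1.47% with Cre and 34.9 ± 2.11% without it in the floxed mice (SD, n = 6 each). Mitochondrial genes took 4.12% to 6.60% of counts in Cre+ and 4.42% to 5.10% in Cre- mice, with the lowest share in Cre+ male 2 and the highest in Cre+ male 1. The part of this length trend in any gene's difference was not tested beyond a fit with the share of counts on long genes as a covariate, chosen after the data were seen. That fit called 2 genes, *Per1* (log2FC -0.53, edgeR adjusted p = 0.0187) and *Aqp4* (log2FC 0.56, edgeR adjusted p = 0.0187), and left *Hopx* at 0.39, *Tiparp* at -0.58 and *Gfap* at 0.31.

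**Figure D4:**
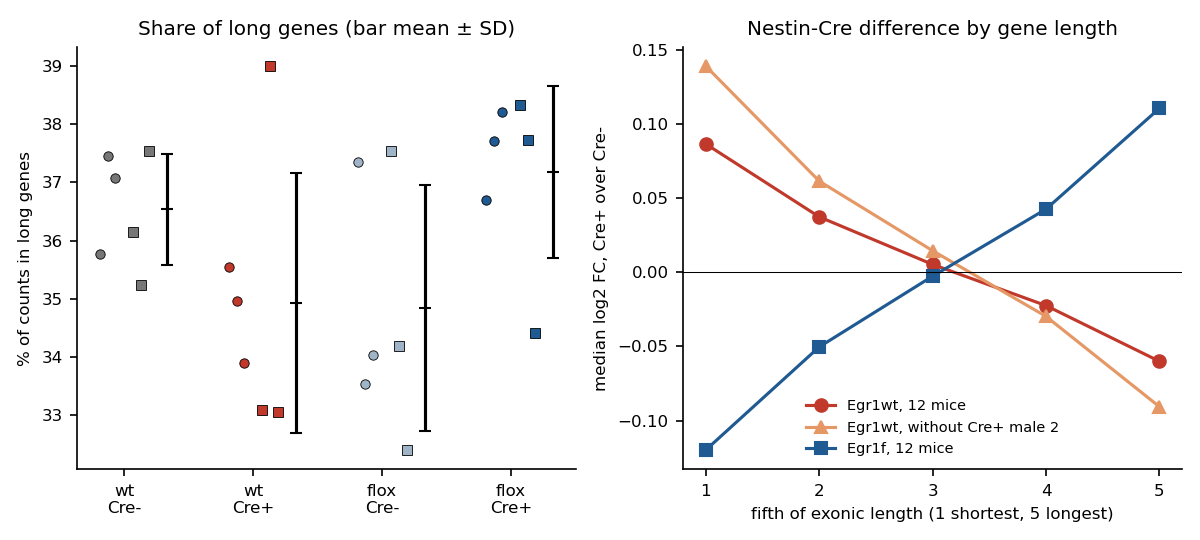
Left, percent of each mouse's counts on protein-coding genes with over 6882 exonic bases (circles females, squares males; bars mean ± SD of 6 mice; axis not from 0); Cre+ male 2 with intact Egr1 lies at 39.0% and the other 5 of its genotype at 33.1% to 35.5%. Right, median log2FC of Cre+ over Cre- in 5 equal groups of protein-coding genes from the shortest to the longest total exonic length. It goes from 0.09 to -0.06 with intact Egr1 (0.14 to -0.09 without Cre+ male 2) and runs from -0.12 to 0.11 with floxed Egr1.

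Among the edgeR fits that left out a mouse, a single library moved the count of DEGs most. Without Cre+ male 2, edgeR called 201 DEGs of 18506 genes, 26 higher with Cre (0.14%) and 175 lower (0.946%), and the lowest adjusted p was 0.00441. For each of the other 11 mice left out in turn the count was 0 or 1. The 175 lower genes had a median exonic length of 9394 bases and the 26 higher genes 2044.5 bases, beside 3857 bases for all genes tested. Cre+ male 2 lay within the range of the other 5 Cre+ mice, or beyond it away from the Cre- mice, for 11 of the 201 genes. For 178 it lay past the mean of the Cre- mice on their far side. These genes were picked as called without Cre+ male 2, and the main edgeR fit, which holds that mouse, called none of them. The place of Cre+ male 2 on them therefore follows largely from how they were picked. Some of them, such as *Per1* and *Wdfy1*, were also called in other edgeR fits that kept this mouse.

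The lowest p among them belonged to *Adcy9*, an adenylyl cyclase, at 61.9 to 82.8 CPM in the other 5 Cre+ mice, 99.4 to 134 CPM in Cre- mice and 155 CPM in Cre+ male 2 (log2FC -0.69 without that mouse, edgeR adjusted p = 0.00441). With all 12 mice its log2FC was -0.42. The higher genes included *Hopx*, *Gfap*, *Fabp7*, *Psrc1*, *Acot1*, *Nat8f4*, *Wdfy1* and *Ttr*, and *Per1*, *Tiparp*, *Tob2*, *Jade2*, *Spty2d1* and *Emx2os* were among the lower. *Adcy9* was named after its values were seen. Of the 20 DEGs that DESeq2 called with all 12 mice, 16 were among these 201.

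Further genes called by DESeq2 were named after their values were seen. *Lrp1*, a large endocytic lipoprotein receptor, was at 324 to 503 CPM with Cre and 482 to 695 CPM without it, with overlap (log2FC -0.43 ± 0.11 SE, DESeq2 adjusted p = 0.0444). *Gtf3c1*, a subunit of a general factor of RNA polymerase III, *Arl5b*, a small GTPase, and *Gm44675*, a transcript of the TEC class still to be tested by experiment, had DESeq2 log2FC values of -0.41, -0.45 and 1.68.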

How the data were processed

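RNA was extracted from the hippocampus of each mouse, and polyA-selected libraries that do not keep strand were sequenced as 150-base read pairs. The authors deposited raw gene counts, not normalized, for each mouse. The submitters' processing notes name Trim Galore (version 3.8.2), FastQC and STAR (version 2.7.9) with the GRCm38 build, and the study's methods give other versions of Trim Galore and STAR; the annotation used for counting is not given in the sources used here. Symbols for 36493 of 36605 gene identifiers were taken from GENCODE annotation of that build.

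Groups came from the genotype and sex in the labels, which name each library as a separate mouse. Counts were tested with edgeR 4.0.16 in R 4.3.3 (quasi-likelihood F test, TMM normalization, filterByExpr with a minimum count of 10, sex as a covariate, Benjamini-Hochberg adjustment). DEGs passed an adjusted p of 0.05 with an FC of 1.2 or more. The SE was obtained from the log2FC and the F statistic. DESeq2 1.42.0 and limma 3.58.1 (voom) were alternatives. Levels are CPM with TMM factors from all 24 mice. The 5 single-gene tests used log2(CPM + 1). The scripts were tested on simulated data.

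Total counts of 18413714 to 25335139 per mouse limit what can be seen of genes below about 1 CPM. No pair of libraries within a genotype and sex held counts that agreed within sampling noise. Named genes were a fixed set, the genes of lowest p among those whose mice did not overlap until 24 were named, and 1 or 2 genes of lowest p in each list. The comparison, the gene lists and the tests were chosen with earlier results of these data known. Some genes are not reported here.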

Additional observations from a re-analysis of the deposited data

Results flagged for a closer look

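Dixon's test over the 6 mice of a genotype was run on the 70 named genes in both genotypes. It marked single animals for some of them, which chance does for about 1 in 20 groups. In Cre+ female 1 it marked *Ttr* at 1905 CPM, *Aqp1*, a water channel of the choroid plexus, at 13.6 CPM, *Tcn2* at 23.6 CPM and *Ddit4* at 28.6 CPM. This mouse also had the highest summed level of choroid plexus markers, and its part in *Tcn2* and *Ddit4* was not tested beyond the fits without it. In Cre+ male 2 it marked *Skil*, an inhibitor of SMAD signalling, at 135 CPM and *Cyfip2*, a subunit of the WAVE complex, at 1259 CPM, both above the other 5 Cre+ mice. In Cre+ male 3 it marked *Wdfy1* at 21.0 CPM, below the other 5.

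Among Cre- mice, male 2 was marked for *Irs2*, an insulin receptor substrate, at 93.8 CPM, for *Egr2* at 3.16 CPM and for *Ly6c1*, an endothelial surface protein, at 32.7 CPM. Cre- female 2 was marked for *Cyfip2* at 1196 CPM. The difference between Cre+ and Cre- mice itself differed between floxed and intact *Egr1* for *Egr1*, by a log2 difference of -3.21, which is the gene that Cre removes in the floxed mice.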

How the results depend on the processing

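With intact *Egr1* the count of DEGs stayed at 0 with DESeq2 size factors in edgeR, no FC minimum, no sex term, limma-voom, a fit of all 24 mice, counts thinned to equal depth, and each sex alone. It was 20 with DESeq2, 156 without the filter on low counts (76 higher, 80 lower, 147 of them kept by the filter), 2 without both mice of highest choroid plexus sums (*Wdfy1* and *Ttr*) and 2 with the share of counts on long genes as a covariate. Leaving out each mouse in turn gave 0 to 201, the 201 without Cre+ male 2 and 1 (*Wdfy1*) without Cre+ male 3. The fits without both choroid-rich mice and with the covariate were chosen after the data were seen. The cause of these shifts was not tested.

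Same-numbered mice of both genotypes did not deviate together (r of -0.141 to -0.0589 over 6 pairs, 0 of which correlated best with their own number), so the numbers do not pair the mice. With a replicate block the count was 0 with intact and 9 with floxed *Egr1*. The interaction with sex gave 0 with each mouse left out and 17 without the filter. In floxed mice the 4 DEGs became 79 with DESeq2 and 808 without the filter, and 1 to 327 with a mouse left out: 327 without Egr1fNesCre- male 1, 1 without Egr1fNesCre- male 2, 2 without each Egr1fNesCre+ female, 10 and 13 without Egr1fNesCre+ males 2 and 3. The interaction with floxP, 1 gene, became 335 with DESeq2 and 1173 without the filter, and 1 to 1482 with a mouse left out (1482 without Egr1wtNesCre+ male 2, 381 without Egr1fNesCre- male 1).

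Over 1651 refits of 69 named genes 1575 kept direction and call, 60 became called and 16 changed sign, in 6 genes. *Nes* was at -0.0863 in males alone and ranged from -0.0908 to 0.142 with a mouse left out. *Ly6c1* was at -0.134 in males alone, -0.0947 with the covariate and ranged from -0.0180 to 0.191 with a mouse left out. In males alone *Syt1* was at 0.0163, *Aif1* at -0.0676 and *Cx3cr1* at -0.0806. *Pvalb* was at -0.0171 without both mice rich in choroid plexus markers and -0.0304 with the covariate. Depth limits genes under about 1 CPM, such as *Pcdh12*.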
